A study of Danio rerio with 3 samples.

Results

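C-reactive proteins, serum amyloid A and haptoglobin are secreted plasma proteins of the acute phase response, and their transcripts were followed in the intestine of adult zebrafish (Danio rerio) after 8 weeks on 1 of 3 diets. Members were all rows of the deposited gene tables whose symbol was crp1 to crp7, saa or hp. This gave 8 rows of 32510 gene identifiers: crp1, crp2, crp3, crp6, crp7, saa and 2 rows named hp. No row carried the symbol crp4 or crp5. The members were chosen by their FPKM and intervals in these same 3 libraries, so their counts and differences are given as a description, with no test.

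The Fe'i group received granules of which 50% was pulp of Fe'i banana, an orange-fleshed fruit rich in carotenoids, and the rest the commercial feed Tetramin. The Cavendish group received the same feed with 50% pulp of the pale Cavendish dessert banana. The control group received Tetramin alone. All fish were 6 to 9 months old, were fed 4% of body weight a day, and gave their intestines on day 56 after 24 hours without food. Each diet is 1 library, and the sources used here do not give the number, sex or strain of the fish or the part of the intestine taken.

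In mammals, interleukin-6 acting through STAT3, together with interleukin-1, drives hepatocytes to make C-reactive protein, serum amyloid A and haptoglobin. C-reactive proteins are pentraxins, ring-shaped proteins that bind phosphocholine on microbes and dying cells and engage C1q. Serum amyloid A travels on high-density lipoprotein. In zebrafish the intestinal epithelium also makes it in response to the microbiota, and it acts on neutrophils. Haptoglobin binds haemoglobin set free from red cells.

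Levels are FPKM, fragments mapped to a gene per kilobase of transcript and scaled to library size, divided here once more by a scaling factor for each library. Values after ± are half-widths of the deposited 95% interval, which covers counting and read assignment within a library and not differences between fish. A gene was called higher or lower when its log2 ratio of (scaled FPKM + 1) was 1 or more in either direction, the intervals of both libraries did not overlap and 1 of them reached 1 FPKM. Of the 8 rows, 7 reached 1 FPKM in a library, as did 14067 genes in all. A median measured gene rested on 140 effective fragments in the Fe'i, 205 in the Cavendish and 181 in the control library. Effective fragments are the squared ratio of a value to its SD.

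The 3 libraries differed in the share of FPKM taken by lists of genes typical of neighbouring organs. The liver list, 29 measured genes of plasma proteins and hepatocyte enzymes, took 3.13% of all FPKM in the Fe'i, 1.42% in the Cavendish and 0.821% in the control library. Against control, its median log2 ratio was 1.90 in the Fe'i library, with calls of higher for 28 genes, and 0.76 in the Cavendish library, with calls of higher for 9. Exocrine pancreas genes took 5.08%, 14.3% and 5.96% in the Fe'i, Cavendish and control libraries. Enterocyte genes, which mark the labelled tissue, took 5.04%, 3.77% and 6.89%, and 23 of 24 were measured. Whether the samples held unlike amounts of liver or pancreas RNA was not tested. The liver and pancreas ratios stand beside the members below, and what part liver or pancreas RNA had in them was not tested. Fewer cells of a type and less RNA per cell cannot be told apart in such libraries.

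The members did not move as 1 group. Compared with control, 5 of the 8 rows (crp3, crp6, crp7, saa and hp on chromosome 7) passed as higher in the Cavendish library and 0 as lower, where 5.68% of all measured genes were called higher and 1.65% lower. Against the same control, 3 rows (crp2, crp3 and the hp row on chromosome 8) passed as higher in the Fe'i library, where the share of all genes was 4.93%. Another 3 (crp6, crp7 and hp on chromosome 7) passed as lower, where the share of all genes was 1.79%. Set directly against the Cavendish library, the Fe'i library had 2 rows called higher (crp2 and the hp row on chromosome 8) and 4 lower (crp6, crp7, saa and hp on chromosome 7), where 4.22% and 4.50% of all genes were called. Both comparisons with control share the control library. Nothing is read from these shares, since the members' own values chose the group.

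**Figure D1:**
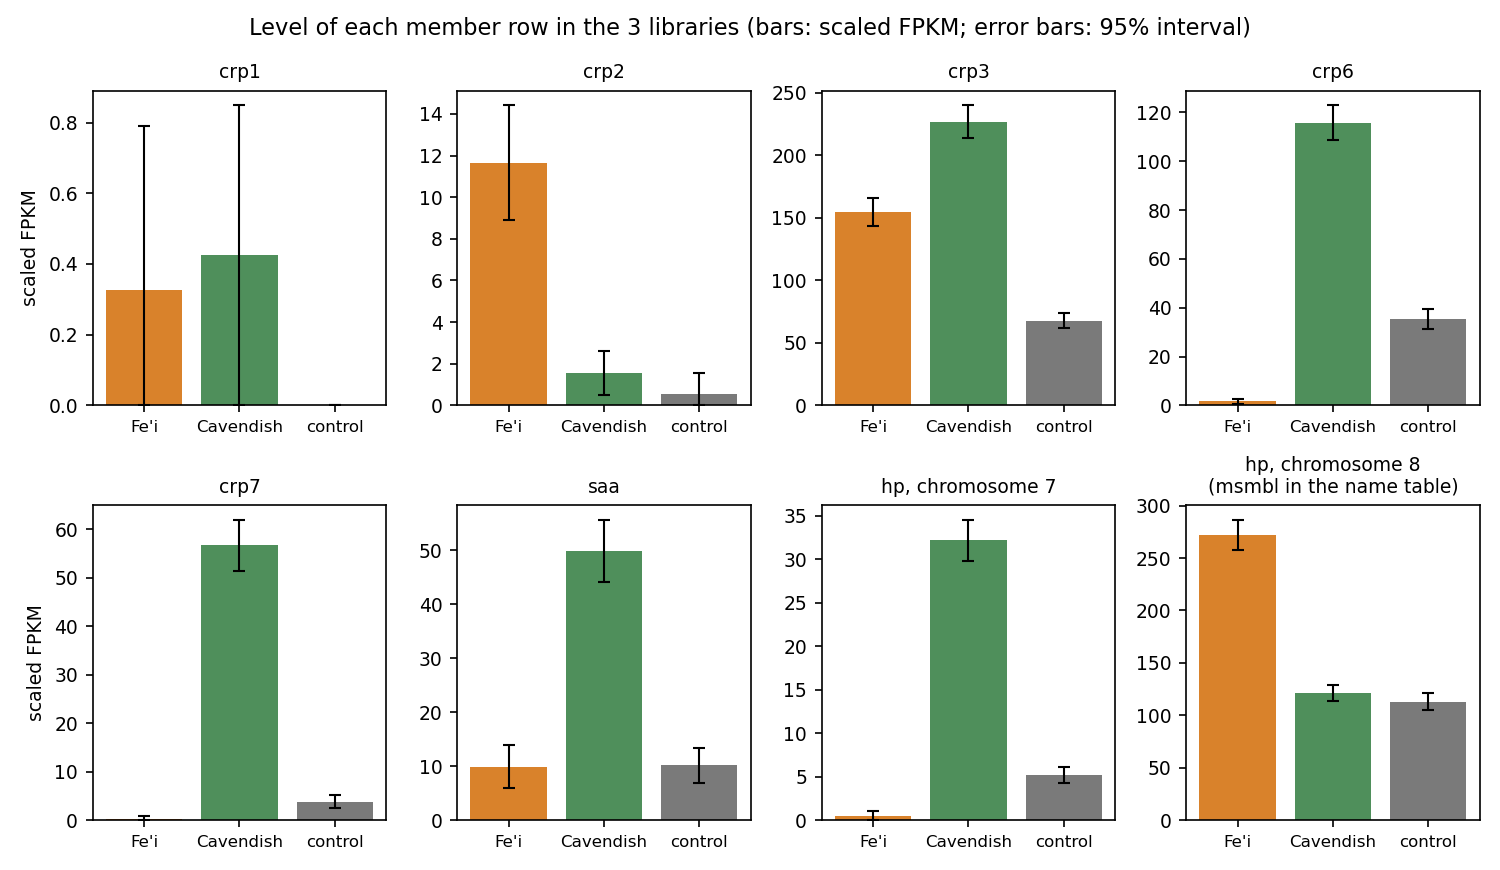
Scaled FPKM of each of the 8 member rows (vertical axes, each starting at 0) in the Fe'i, Cavendish and control libraries; bars are the value of 1 library and error bars its deposited 95% interval. crp3, crp6, crp7, saa and hp on chromosome 7 were highest in the Cavendish library, and crp2 and the hp row on chromosome 8 were highest in the Fe'i library.

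The C-reactive protein genes lie side by side on chromosome 24, from position 38073223 to 38192003 in GRCz11, a stretch of 119 kb. The RefSeq gene table, which is of another assembly (GRCz12tu), places 7 genes there in the order crp1 to crp7. The copies resemble each other, so reads can be assigned to the wrong copy, and the values of single copies are less certain than their intervals show. crp3 (ENSDARG00000042613, 38092608 to 38097305) was the most abundant copy in all 3 libraries. It stood at 155 ± 11.2 FPKM in the Fe'i, 227 ± 12.99 in the Cavendish and 67.6 ± 5.98 in the control library. The 3 intervals did not overlap, and both banana libraries were above the control. The log2 ratio against control was 1.18 (counting SE 0.08) in the Fe'i library and 1.73 (counting SE 0.08) in the Cavendish library, 2.27-fold and 3.32-fold on that scale, which understates the change of low genes. Between the banana libraries the Fe'i value was 1.46-fold lower, which did not reach the threshold of 2-fold.

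crp6 (ENSDARG00000071457, 38130604 to 38131381) separated the banana libraries. It was at 1.63 ± 1.05 FPKM in the Fe'i, 116 ± 7.03 in the Cavendish and 35.4 ± 4.17 in the control library. None of these intervals overlapped: the Cavendish library was highest and the Fe'i library lowest. The log2 ratio against control was 1.68 (counting SE 0.09) in the Cavendish and -3.79 (counting SE 0.30) in the Fe'i library. The Fe'i value rests on 9.59 effective fragments and the control value on 289. Of 14067 measured genes, crp6 had the 14th lowest ratio of Fe'i to control. Its log2 ratio of Fe'i to Cavendish was -5.47 (counting SE 0.29), the 8th lowest.

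crp7 (ENSDARG00000071456, 38137473 to 38192003) had the same order of libraries at lower levels. It was at 0.287 ± 0.538 FPKM in the Fe'i, 56.7 in the Cavendish (interval 51.5 to 61.9) and 3.83 ± 1.32 in the control library. These intervals did not overlap either. The log2 ratio against control was 3.58 (counting SE 0.21) in the Cavendish library, 11.9-fold, the 37th highest of all measured genes. In the Fe'i library it was -1.91 (counting SE 0.36). Only 1.14 effective fragments stand behind the Fe'i value, so the plain ratio of Fe'i to control FPKM, 0.0750, has an exact binomial 95% interval from 0.00273 to 0.409. Against the Cavendish library the plain ratio was 0.00507, with an interval from 0.00019 to 0.0259. The Fe'i call of crp7 against control was lost when 5 in place of 1 was added before the logarithm, and when 5 FPKM was required. The crp7 row spans 54531 bases and encloses the row si:ch211-234p6.5, which was at 0.0111 FPKM in the Fe'i, 0.0142 in the Cavendish and 0.00825 in the control library.

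crp2 (ENSDARG00000056462, 38082471 to 38085789) went the other way. It was at 11.7 ± 2.75 FPKM in the Fe'i, 1.57 ± 1.06 in the Cavendish and 0.540 ± 1.03 in the control library. The Fe'i interval lay above both others, and the Cavendish and control intervals overlapped. The log2 ratio of Fe'i to control was 3.04 (counting SE 0.51), the 36th highest of all measured genes. The control value rests on 1.096 effective fragments, and the plain ratio of 21.6 has an exact binomial 95% interval from 3.99 to 657. Against the Cavendish library, with 8.71 effective fragments, the plain ratio was 7.43 with an interval from 3.67 to 17.2.

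crp1 (ENSDARG00000071454, 38073223 to 38079261) stayed below 1 FPKM, at 0.327 ± 0.463 in the Fe'i and 0.424 ± 0.424 in the Cavendish library, and is listed at 0 in the control library. No fold is given for it. Of the symbols with no row, crp5 can be traced: the gene name table pairs crp5 with an identifier (ENSDARG00000056498) that the deposited tables call BX001030.1. That row was at 1.71 ± 1.02 FPKM in the Fe'i, 2.09 ± 0.887 in the Cavendish and 0.267 ± 0.407 in the control library. It was called higher in both banana libraries, but the control value rests on 1.72 effective fragments. crp4 was matched to no identifier and is not analysed here. An unnamed row, BX001030.2, lies between crp3 and the crp5 identifier. It was at 0.152 ± 0.305 FPKM in the Fe'i and 0.691 ± 0.523 in the Cavendish library, and is listed at 0 in the control library. Whether it is crp4 was not tested.

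**Figure D2:**
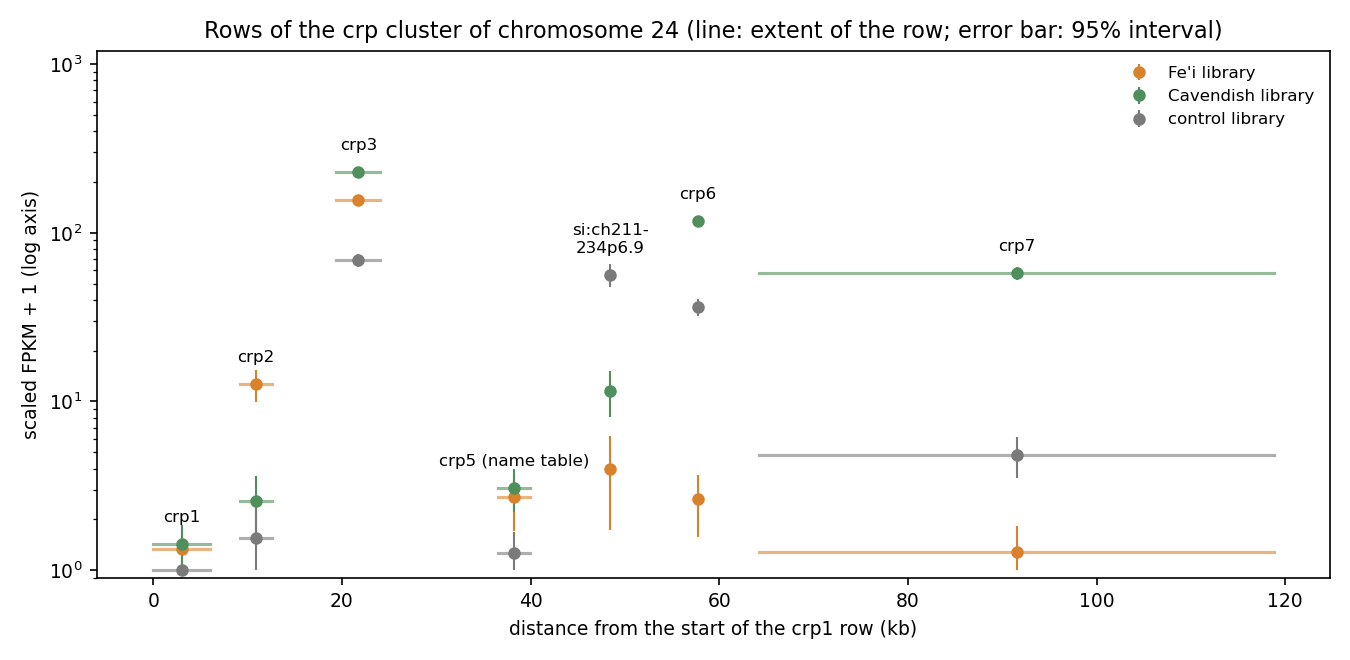
Levels along the crp cluster of chromosome 24: distance from the start of the crp1 row in kb (horizontal) against scaled FPKM + 1 on a log axis (vertical) in the Fe'i, Cavendish and control libraries. Horizontal lines show the extent of each row and error bars the 95% interval; in the Fe'i library crp2 and crp3 stood at 11.7 and 155 FPKM while crp6 and crp7 were at 1.63 and 0.287.

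One more row of this cluster was abundant. si:ch211-234p6.9 (ENSDARG00000095730), a row of 518 bases between the crp5 identifier and crp6, was at 2.99 ± 2.26 FPKM in the Fe'i, 10.6 ± 3.51 in the Cavendish and 55.4 ± 8.49 in the control library. It was highest in the control library, with no overlap among the 3 intervals. Its log2 ratio against control was -3.82 (counting SE 0.42) in the Fe'i and -2.29 (counting SE 0.24) in the Cavendish library. It carries no gene name in the tables used here and was picked out after its values were seen. The nearest measured rows outside the cluster were also looked up. igic1s1, an immunoglobulin light chain constant segment 2132 bases beyond crp7, was at 85.1 ± 9.60 FPKM in the Fe'i, 49.6 ± 5.90 in the Cavendish and 59.16 ± 6.86 in the control library and was called in neither comparison with control. tmem204, a membrane protein gene 195244 bases before crp1, was at 0.969 ± 0.656, 3.37 ± 0.835 and 0.658 ± 0.427 FPKM in the same order. It was called higher in Cavendish against control and not called in Fe'i against control.

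Because the copies can share reads, the 5 crp rows were also summed. The sum leaves out si:ch211-234p6.9, at 2.99, 10.6 and 55.4 FPKM in the Fe'i, Cavendish and control libraries. Whether that row shares reads with the crp rows was not tested. The sum was 169 ± 11.6 FPKM in the Fe'i, 401 ± 15.7 in the Cavendish and 107 ± 7.48 in the control library. These half-widths and the counting SE below were combined from the rows as if their errors were independent, which shared reads can break. The 3 intervals of this sum, without si:ch211-234p6.9, did not overlap. The log2 ratio of the sums was 1.89 (counting SE 0.06) for Cavendish against control, 3.71-fold, and 0.65 (counting SE 0.07) for Fe'i against control, 1.56-fold. For Fe'i against Cavendish it was -1.25 (counting SE 0.06). Most of the excess of the Fe'i sum over the control sum depends on leaving out si:ch211-234p6.9.

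The makeup of the sum differed between the libraries as well. crp3 made up 91.8% of it in the Fe'i, 56.5% in the Cavendish and 62.9% in the control library. crp6 made up 0.969%, 28.8% and 33.0%, and crp7 0.170%, 14.1% and 3.57%, in the same order. crp2 took 6.92% in the Fe'i library but 0.391% in the Cavendish and 0.503% in the control library. The level of crp3 was 94.7 times that of crp6 in the Fe'i library, against 1.96 times in the Cavendish and 1.91 times in the control library. In the Cavendish library, then, crp3 and crp6 stood in nearly the same proportion as in the control, while crp7 made up a larger share.

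**Figure D3:**
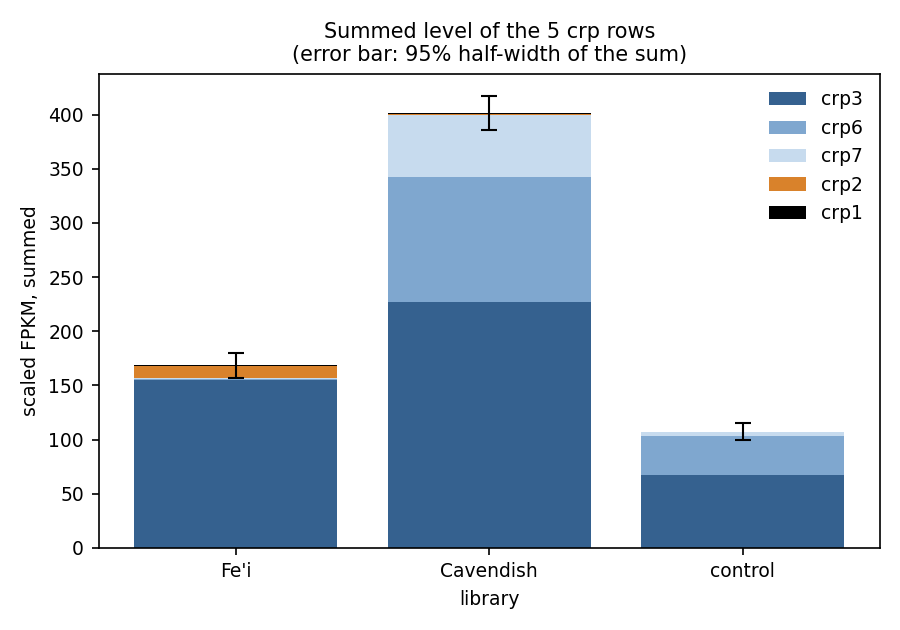
Scaled FPKM summed over the 5 crp rows (vertical axis from 0) in the Fe'i, Cavendish and control libraries, split by row; the error bar is the 95% half-width of the sum. The sums were 169, 401 and 107 FPKM, and crp6 and crp7, which made up 28.8% and 14.1% of the Cavendish sum, were nearly missing from the Fe'i sum.

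Serum amyloid A is encoded by saa (ENSDARG00000045999; chromosome 7, 12950507 to 12956434 in GRCz11), which the gene name table lists as SAA2. It was at 9.88 ± 3.97 FPKM in the Fe'i, 49.8 ± 5.70 in the Cavendish and 10.1 ± 3.25 in the control library. The Cavendish library stood apart from both others, whose intervals overlapped. The log2 ratio was 2.19 (counting SE 0.23) for Cavendish against control, 4.57-fold. It was -0.03 (counting SE 0.34) for Fe'i against control, and the plain ratio of 0.976 has an exact binomial 95% interval from 0.565 to 1.66. The Fe'i to Cavendish log2 ratio was -2.22 (counting SE 0.28). The neighbouring ferritin gene fth1a was at 1825 ± 79.2, 1941 ± 82.6 and 1877 ± 80.4 FPKM in the Fe'i, Cavendish and control libraries, and the ribosomal protein gene rplp2l on the other side at 3550 ± 164, 4104 ± 181 and 3847 ± 172. Neither was called.

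Haptoglobin raised a question of names. Both hp rows carry the symbol hp in the deposited tables, but the gene name table gives hp only for the row on chromosome 7 (ENSDARG00000051890, 56577522 to 56585738). For the row on chromosome 8 (ENSDARG00000095807, 50143194 to 50147948) it gives msmbl, microseminoprotein beta-like. The RefSeq table holds 1 gene named hp, on chromosome 7, and places msmbl on chromosome 8 between antxr1a and entpd4. The deposited tables also have the chromosome 8 row between antxr1a and entpd4. The chromosome 8 row is therefore described by its identifier's name, msmbl, and not as haptoglobin.

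hp on chromosome 7 was at 0.497 ± 0.603 FPKM in the Fe'i, 32.2 ± 2.32 in the Cavendish and 5.19 ± 0.973 in the control library. The intervals did not overlap, and the order of libraries was that of crp6 and crp7. The log2 ratio against control was 2.42 (counting SE 0.12) in the Cavendish library, 5.35-fold, and -2.05 (counting SE 0.31) in the Fe'i library. Only 2.72 effective fragments stand behind the Fe'i value, and the plain ratio of Fe'i to control FPKM, 0.0957, has an exact binomial 95% interval from 0.0174 to 0.301. For Fe'i against Cavendish the plain ratio was 0.0155, with an interval from 0.00285 to 0.0476. The Fe'i call against control was lost with a pseudocount of 5. Its neighbours dhodh and sult5a1 were called in neither comparison with control.

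The msmbl row was the most abundant of the 8 in the Fe'i library. It was at 272 ± 14.2 FPKM in the Fe'i, 121 ± 7.67 in the Cavendish and 113 ± 7.93 in the control library. The Fe'i library stood above both others, whose intervals overlapped. The log2 ratio was 1.26 (counting SE 0.06) for Fe'i against control, 2.39-fold, and 0.10 (counting SE 0.07) for Cavendish against control, where other scalings gave values down to -0.16. Of its neighbours, si:ch73-132k15.2 was at 13.2 ± 5.37, 0.821 ± 1.55 and 0.477 ± 1.76 FPKM in the Fe'i, Cavendish and control libraries, called higher in Fe'i against control, and entpd4 was not called. So the rows that share the name hp had different profiles: one was highest in the Cavendish library and nearly missing from the Fe'i library, the other highest in the Fe'i library.

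The members were then set beside the liver list. In the Cavendish library crp3, crp6, crp7, saa and hp each had a higher ratio to control than all 29 liver genes, whose ratios ran from 0.11 (fah) to 1.67 (fabp10a). For crp3 and crp6 the margin over fabp10a was within their counting SE. crp7 exceeded the liver median by 2.82 on the log2 scale, hp by 1.67 and saa by 1.44. In the Fe'i library the liver genes ran from 0.30 to 3.78, and crp6, crp7, saa and hp lay below all 29 of them, saa by less than its counting SE. Their difference from the liver median was -5.69 for crp6, -3.95 for hp, -3.81 for crp7 and -1.94 for saa on the log2 scale. The added 1 FPKM compresses ratios of low rows, most of all crp7 and hp, at 0.287 and 0.497 FPKM in the Fe'i library. The order of crp6, hp and crp7 in these differences is therefore not interpreted. crp3, at 1.18, lay above 2 of the 29, and crp2, at 3.04, above 27. The msmbl row lay below all 29 liver genes in the Cavendish library, though by less than its counting SE, and above 2 of them in the Fe'i library.

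Genes of the exocrine pancreas, which secretes digestive enzymes, covered the ratios of crp3, crp6, crp7, saa and hp in Cavendish against control. Of 22 measured pancreas genes, 19 were called higher in Cavendish against control, with a median log2 ratio of 1.58 and a range from 0.80 (ctrl) to 4.06 (the elastase gene cela1.3). crp3 and crp6 each lay above 13 of the 22, saa and hp above 18, and crp7 above 21. crp2 and the msmbl row lay below all 22. In Fe'i against control the pancreas median was -0.05, with a range from -0.57 to 2.11 and 2 genes called higher. There crp6, crp7 and hp lay below all 22, and saa lay above 12. In Fe'i against Cavendish 20 pancreas genes were called lower, with a median of -1.61 and a range from -2.26 to -0.90. crp6, crp7 and hp lay below all 22 in this comparison, and saa, at -2.22, above 2.

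**Figure D4:**
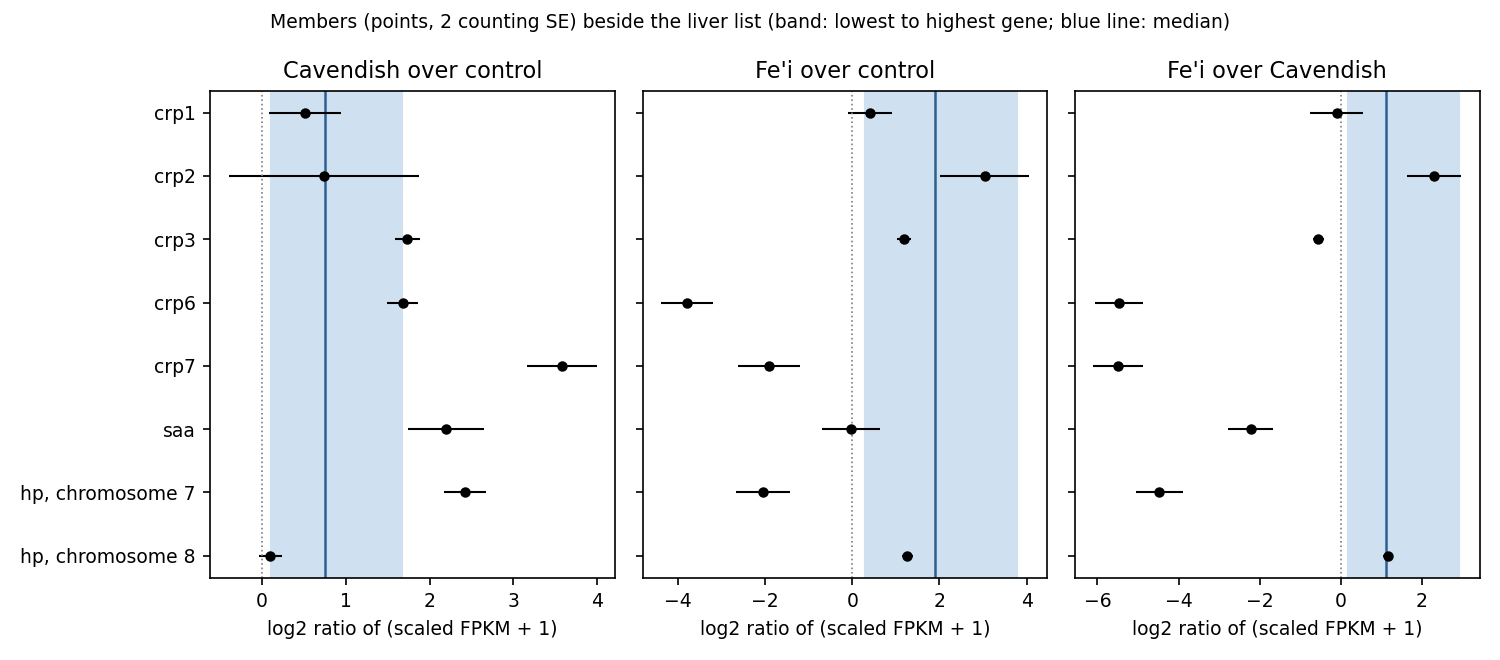
Log2 ratio of (scaled FPKM + 1) of each member row (points, with 2 counting SE) for Cavendish over control, Fe'i over control and Fe'i over Cavendish; the band runs from the lowest to the highest of 29 liver genes and the blue line is their median. crp6, crp7, saa and hp on chromosome 7 lie to the right of or at the upper edge of the liver band for Cavendish over control and to the left of it in both Fe'i panels.

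The other pentraxins were mostly below 1 FPKM. Of 11 matched identifiers 1 was measured, apcs (serum amyloid P component), which the deposited tables call si:ch211-270n8.1. It was at 31.6 ± 3.91 FPKM in the Fe'i, 15.2 ± 2.18 in the Cavendish and 3.94 ± 1.18 in the control library. Its log2 ratio against control was 2.72 in the Fe'i and 1.72 in the Cavendish library, so its order of libraries was that of the liver list.

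Most measured regulators of the acute phase response were called in neither comparison with control. Of 19 measured genes of interleukin-6 family signalling and of the hepatocyte factors that act with it, 1 was called higher in Fe'i against control and 3 in Cavendish against control, and 0 were lower in either, where 4.93% and 5.68% of all genes were called higher. The medians were 0.06 and 0.33, where the medians of all measured genes were 0.02 and 0.02. socs3a, a feedback inhibitor of STAT3 signalling, was at 41.5 ± 2.62 FPKM in the Fe'i, 60.7 ± 2.52 in the Cavendish and 25.7 ± 1.78 in the control library, called higher in the Cavendish library. Its paralog socs3b was at 19.2 ± 1.91, 14.5 ± 1.36 and 8.78 ± 1.103 FPKM in that order, called higher in the Fe'i library. The other 2 calls in the Cavendish library were lifrb, a receptor gene of this cytokine family, at 3.96 FPKM against 0.551 in the control, and the cytokine il11a, at 1.66 FPKM and listed at 0 in both other libraries. stat3 itself was at 16.1 ± 1.36, 10.47 ± 0.881 and 19.8 ± 1.39 FPKM in the Fe'i, Cavendish and control libraries, and cebpb, a transcription factor of acute phase genes, at 81.3 ± 4.21, 126 ± 4.18 and 77.2 ± 3.53. Neither was called.

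Of 18 measured genes of interleukin-1, TNF and NF-kB signalling, 0 were called in either direction against control, with medians of -0.07 in the Fe'i and 0.08 in the Cavendish library. il1b was at 4.74 ± 0.977 FPKM in the Fe'i, 11.5 ± 1.28 in the Cavendish and 5.43 ± 0.909 in the control library, just under the threshold against control at a log2 ratio of 0.96 and called lower in Fe'i against Cavendish. nfkb2 was at 20.6 ± 1.51, 18.0 ± 1.22 and 25.2 ± 1.62 FPKM in the same order.

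Other acute phase and plasma defence proteins were mostly called higher in Fe'i against control. Of 34 measured identifiers, 12 of them also in the liver list, Fe'i against control gave 28 called higher and 0 lower (median 1.73), and Cavendish against control gave 9 called higher and 1 lower (median 0.79). The leg1 genes encode secreted proteins of the fish liver. leg1.1 was at 323 ± 8.95 FPKM in the Fe'i, 86.4 ± 3.69 in the Cavendish and 56.4 ± 3.21 in the control library, and leg1.2 at 190 ± 6.80, 30.2 ± 2.18 and 15.9 ± 1.71. A complement gene named c6 (ENSDARG00000093052) was at 3.13 ± 0.630, 11.7 ± 1.298 and 1.37 ± 0.463 FPKM, highest in the Cavendish library. The other identifier with that symbol was at 26.9 ± 3.77, 53.6 ± 3.67 and 20.1 ± 2.72 FPKM, also highest there. The 1 gene called lower in the Cavendish library was irg1l, at 5.66 FPKM against 15.0 in the control.

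C-reactive protein acts through the classical complement pathway. The list set beside it held 12 measured genes, those of the C1q and lectin pathways with the alternative pathway genes cfd and cfp and the terminal component c5. Of these, 6 were called higher in Fe'i and 5 in Cavendish against control, and 0 lower, with medians of 0.80 and 0.73. c4 was at 49.7 ± 5.23 FPKM in the Fe'i, 23.5 ± 2.83 in the Cavendish and 7.80 ± 1.41 in the control library, c4b at 51.6 ± 2.92, 35.9 ± 2.08 and 12.0 ± 0.986, and the lectin pathway protease masp2 at 10.7 ± 1.303, 7.28 ± 0.859 and 2.93 ± 0.613. These 3 genes were highest in the Fe'i library. In Fe'i against Cavendish c4 was called higher, and c1qa and cfd were called lower. cfd, which encodes complement factor D, was the most abundant gene of the list, at 259 ± 10.52 FPKM in the Fe'i, 640.1 ± 13.5 in the Cavendish and 456 ± 12.1 in the control library. c1qa, a chain of C1q, was at 9.06 ± 1.68, 22.1 ± 2.12 and 16.0 ± 1.95 FPKM in the same order.

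Haemoglobin is the ligand of haptoglobin, and hemopexin binds the heme that haemoglobin releases. Of 16 measured identifiers on this list, 8 were called higher in Fe'i and 5 in Cavendish against control, and 0 lower, with medians of 0.86 and 0.61. hbba2, a beta globin gene, was at 22.6 ± 3.99 FPKM in the Fe'i, 14.3 ± 2.56 in the Cavendish and 2.85 ± 1.22 in the control library. The globin genes resemble each other and can share reads. hpx, hemopexin, was at 1098 ± 46.6, 144 ± 6.79 and 79.0 ± 4.18 FPKM, and hmox1a, which degrades heme, at 66.8 ± 4.87, 9.18 ± 1.25 and 5.53 ± 1.03. The log2 ratio of Fe'i to control was thus 3.78 for hpx and -2.05 for hp. hpx is also 1 of the liver genes.

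Neutrophil genes, set beside saa, gave 1 of 14 called higher in Fe'i against control and 3 in Cavendish against control, and 0 lower, with medians of 0.04 and 0.49. The chemokine cxcl8b.1 was at 32.8 ± 4.51 FPKM in the Fe'i, 231 ± 9.498 in the Cavendish and 38.5 ± 4.17 in the control library, and cxcl8a at 8.68 ± 2.32, 21.8 ± 2.96 and 6.54 ± 1.73. mmp9, a matrix protease, was at 0.675 ± 0.364, 11.1 ± 1.01 and 0.601 ± 0.281 FPKM. As for saa, the Cavendish library stood above both others in these 3 genes. mpx, the myeloperoxidase of neutrophil granules, was at 56.4 ± 2.86 FPKM in the Fe'i, 21.8 ± 1.33 in the Cavendish and 23.3 ± 1.43 in the control library, so it was highest in the Fe'i library. Macrophage genes had medians of -0.45 in the Fe'i and 0.13 in the Cavendish library. Among 13 measured, 1 was called higher in Fe'i against control and 1 lower in Cavendish against control. The goblet and secretory list had 2 measured genes and 0 calls against control.

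**Figure D5:**
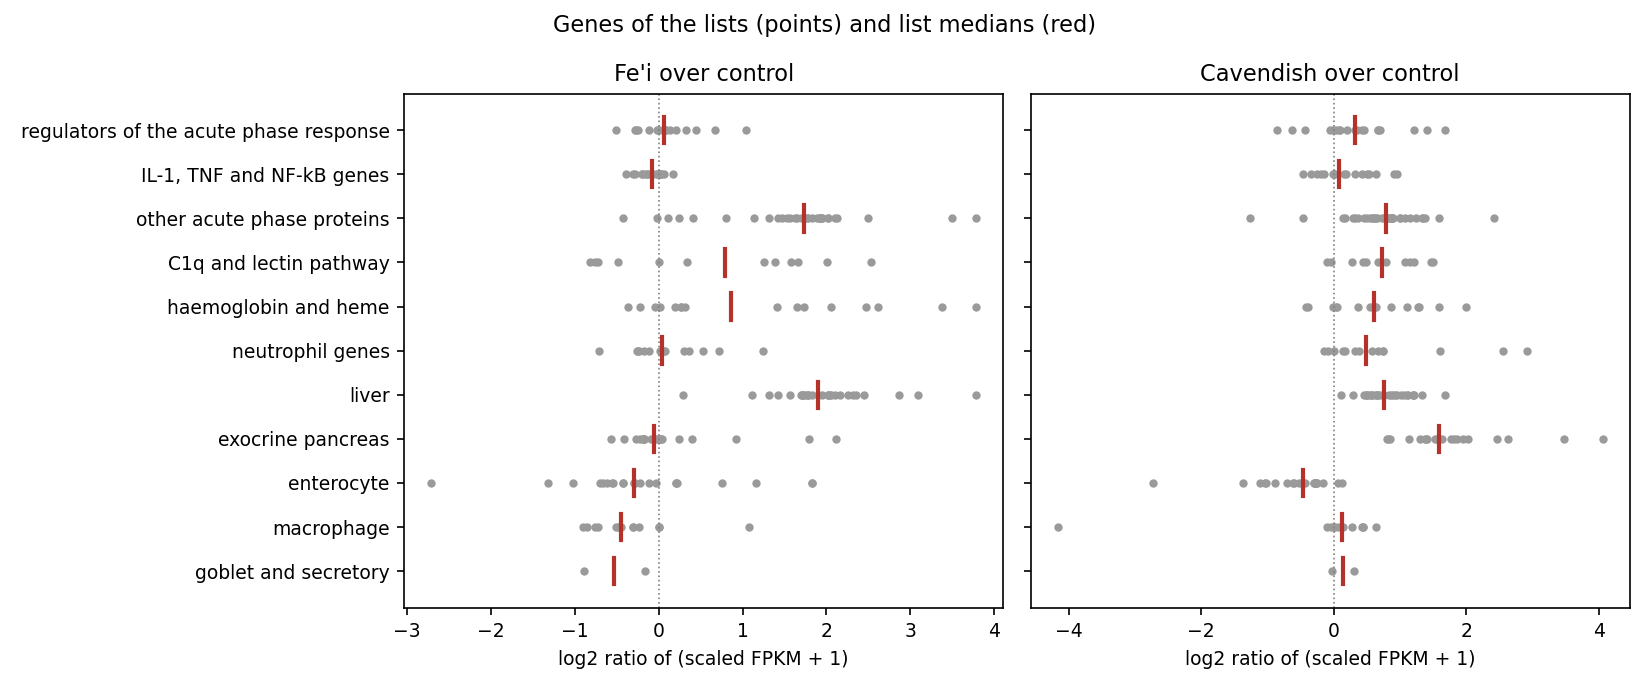
Log2 ratio of (scaled FPKM + 1) of the measured genes of each list (grey points) and the list median (red) for Fe'i over control and Cavendish over control. The liver list and the other acute phase proteins lie to the right for Fe'i over control, with medians of 1.90 and 1.73. Interleukin-1, TNF and NF-kB genes have medians of -0.07 for Fe'i and 0.08 for Cavendish over control. In the Cavendish panel their points reach 0.96 (il1b).

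For the 3 members with the highest mean level, the genes with the most similar pair of ratios against control were looked up among 6630 genes with a gene name at 5 FPKM or more, by Euclidean distance over the 3 libraries. The closest to crp3 was nkx2.3, a homeobox gene, at 7.19 FPKM in the Fe'i, 11.8 in the Cavendish and 2.77 in the control library (distance 0.07), followed by the T cell receptor segment tradv14.0, whose intervals overlap, and eif4ebp3. The closest to the msmbl row were nelfcd, asl and the lysosomal enzyme hexb, at distances from 0.02 to 0.11. crp6 had no close neighbour. The first was sat1a.2 at a distance of 0.59, whose intervals are wider than its values in all 3 libraries, and the next was hp on chromosome 7 at 1.89, then tpmt.2 at 1.97.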

How the data were processed

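Poly(A) RNA of 3 intestine samples, 1 library per diet, was sequenced in paired reads of 150 bases, per the labels. The submitters' processing notes name TopHat2 2.1.0, FastQC 0.11.5 and the build GRCz11. Per the file headers, the authors deposited FPKM with 95% intervals in the layout of Cufflinks, whose version the sources used here do not give. Row starts count from 0 (end minus start equals the RefSeq length for 270 of 287 microRNA rows), so 1 was added.

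Rows of 1 identifier were summed, and 9 identifiers without status OK were left out. Each library was divided by a factor, the median over 11413 genes of its FPKM over their geometric mean (0.965 for Fe'i, 0.969 for Cavendish, 1.06 for control). Calls and effective fragments are defined with the results. With 1 library per diet no p-value exists. The exact binomial intervals and the counting SE derive from the deposited intervals. They cover counting and read assignment within a library and not differences between fish. The binomial formula was applied to effective fragments, which need not be whole numbers. PCR copies are not independent molecules. The call rule was tried on simulated data that held counting error only. The simulation had no differences between fish and no reads assigned to the wrong copy, so it says nothing on either. Python 3.11.15, pandas 2.3.3 and scipy 1.17.1 were used.

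The members and lists were chosen with earlier results of these data known. There were 12 lists of 257 symbols, of which 236 matched through the files, the gene name table (89.8% of identifiers) or RefSeq (GRCz12tu, names and gene order only). Genes named are all members, up to 4 per pathway list that reached 5 FPKM and had the widest ratios against control, and the 3 nearest patterns of 3 members. Outside this rule, chosen after their values were seen, are si:ch211-234p6.9, si:ch211-234p6.5, BX001030.2, the crp5 identifier, the neighbouring genes, il11a and lifrb. So are irg1l, c1qa, cfd, the other c6 identifier, fah, fabp10a, ctrl and cela1.3. Alternatives were 3 other scalings, pseudocounts of 0.1 and 5, other minimum FPKM, a log2 threshold of 1.5 and intervals of 3 SD.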

Additional observations from a re-analysis of the deposited data

Results flagged for a closer look

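In the 2 banana libraries 3 members were called in opposite directions against the control library, higher in the Cavendish and lower in the Fe'i library. Of all measured genes, 5.68% were called higher in Cavendish against control and 1.79% lower in Fe'i against control. The share of all genes called both ways was not counted. The Fe'i values of crp7 and hp on chromosome 7 rest on 1.14 and 2.72 effective fragments. Their Fe'i calls were lost with a pseudocount of 5. The Fe'i log2 ratio minus the Cavendish log2 ratio was -5.47 for crp6, -5.49 for crp7 and -4.47 for hp on chromosome 7. The control value cancels in this difference, which equals the direct log2 ratio of Fe'i to Cavendish and is no separate observation. It was not tested, since each diet has 1 library. The calls in opposite directions share the control library.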

How the results depend on the processing

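Among 216 repeats of a member's call under 9 alternatives, 6 changed, all of them losses, and no ratio of a called member changed sign. The alternative without a minimum FPKM could change no call. With a pseudocount of 1, a log2 ratio of 1 already needs 1 FPKM in the higher library. At a log2 threshold of 1.5, members called higher fell to 1 in Fe'i against control (crp3 and the msmbl row lost) and to 1 in Fe'i against Cavendish (the msmbl row lost), and with a pseudocount of 5 members called lower fell to 1 in Fe'i against control (crp7 and hp lost).

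The summed crp log2 ratio of Cavendish against control was 1.63 with TPM, 1.76 with TPM computed after leaving out pancreas and mitochondrial genes, and 1.76 with unscaled FPKM. With TPM it was 0.50 for Fe'i against control and -1.12 for Fe'i against Cavendish. Adding the crp5 identifier, an alternative chosen after seeing the data, gave 1.90, 0.66 and -1.24 for Cavendish against control, Fe'i against control and Fe'i against Cavendish. That row was at 2.09 FPKM or less, so it could move the sums little. No sum with si:ch211-234p6.9 was computed. That row was at 2.99 FPKM in the Fe'i, 10.6 in the Cavendish and 55.4 in the control library. Adding it would lower the ratio of both banana sums to the control sum. The sums without it were 169 FPKM in the Fe'i and 107 in the control library, so most of the Fe'i excess would be lost. The 1.56-fold ratio of Fe'i to control and its separate intervals hold only for the sum without that row.

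Counts over all genes also moved. They are not comparable with the members' calls, since the members were chosen by their values in these same libraries. In Cavendish against control, genes called higher and lower numbered 517 and 452 with TPM, 280 and 95 when the pseudocount was 5, and 265 and 86 at a log2 threshold of 1.5. Genes called lower numbered 365 with TPM lacking pancreas and mitochondrial genes, and genes called higher 1280 with a pseudocount of 0.1 and 491 at a minimum of 5 FPKM. In Fe'i against control they numbered 333 and 79 with a pseudocount of 5 and 366 and 91 at a threshold of 1.5, and genes called lower 395 with a pseudocount of 0.1 and 160 at a minimum of 5 FPKM. In Fe'i against Cavendish they numbered 277 and 225 with a pseudocount of 5 and 271 and 241 at a threshold of 1.5, and genes called lower 1014 with a pseudocount of 0.1 and 393 at a minimum of 5 FPKM. Genes called higher made up 77.5% of the calls of Cavendish against control, 66.9% with unscaled FPKM and 53.4% with TPM, which moved the median log2 ratio of all genes to -0.19.

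No paired analysis was possible because each diet has 1 library. Depth limits crp1, crp2 in the control library, and crp7 and hp in the Fe'i library, which rest on fewer than 5 effective fragments.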
